A study of Homo sapiens with 52 samples.

Results

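The transcripts of the human mitochondrial genome were followed through 4 assays in HEK293T cells, a transformed line from human embryonic kidney. They were chosen by a list of 37 transcript identifiers (13 mRNAs, 2 rRNAs and 22 tRNAs), and all 37 were found among the 226882 transcripts of the deposited table. The study compared cells lacking or depleted of eIF2D, MCTS1 or DENR, which are factors that act on the cytosolic 40S ribosomal subunit after termination. RNA-seq (labelled as polyA RNA) and Ribo-seq, the sequencing of ribosome-protected fragments, covered wild type cells, MCTS1 knockout (KO) clones #1 and #2, and cells given control siRNA (siControl) or DENR siRNA #1 or #2, each in 2 libraries per assay. TCP-seq, the sequencing of RNA fragments held by ribosomal complexes that include the 40S subunit, covered wild type cells (4 libraries), eIF2D KO clones #1 and #2 and MCTS1 KO clones #1 and #2 (2 libraries each). 40S Sel-TCP-seq read 40S subunits recovered by V5-tagged eIF2D, V5-tagged MCTS1 or V5-tagged DENR (2 libraries each). The labels number the KO lines #1 and #2, called clones here, and give neither their alleles nor how the tagged proteins were expressed. They also do not say whether replicate libraries came from separate cultures, so the spread behind each p-value is that of these libraries and may be technical.

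Mitochondrial DNA encodes subunits of the respiratory chain and of ATP synthase, and the rRNAs and tRNAs needed to make them. Its mRNAs are translated inside the organelle by mitochondrial ribosomes, which have their own small and large subunits, and not by the cytosolic 40S and 60S subunits. Both strands are transcribed as long precursors that are cut into single RNAs, largely at the tRNAs that lie between the mRNAs. The deposited table gives identifiers without gene names, and the symbols used here were assigned to the identifiers from general knowledge of the Ensembl annotation, not from a table that pairs them. All 37 assigned symbols occurred in the gene name table, and each had a RefSeq row on the mitochondrial chromosome, which is a check on the names and not on their pairing with the identifiers. Examples are MT-ND1 (ENST00000361390), MT-CO1 (ENST00000361624), MT-CYB (ENST00000361789), MT-RNR1 (ENST00000389680) and MT-RNR2 (ENST00000387347).

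The 13 mRNAs encode 7 subunits of complex I (NADH dehydrogenase: MT-ND1 to MT-ND6 and MT-ND4L), 1 subunit of complex III (MT-CYB, cytochrome b), 3 of complex IV (cytochrome c oxidase: MT-CO1, MT-CO2 and MT-CO3) and 2 of ATP synthase (MT-ATP6 and MT-ATP8). MT-RNR1 and MT-RNR2 are the rRNAs of the small and the large mitochondrial subunit. In the RefSeq annotation MT-ATP8 overlaps MT-ATP6 by 46 bases and MT-ND4L overlaps MT-ND4 by 7 bases. How reads in such overlaps, reads from opposite strands (MT-ND6 lies opposite the other mRNAs) and reads that also match nuclear copies of mitochondrial DNA were counted was not stated in the sources available.

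Library totals ran from 76967099 to 301214608 counts in RNA-seq, from 16370112 to 193940882 in Ribo-seq, from 1609303 to 5053637 in TCP-seq and from 356019 to 2582917 in Sel-TCP-seq. A count was present in every library for 36 of the 37 transcripts. The exception was MT-TW, the tRNA for tryptophan, with no count in 1 library of DENR siRNA #1 in Ribo-seq. Fewer mitochondria per cell and less RNA per mitochondrion cannot be told apart in such bulk libraries.

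The make-up of the mitochondrial reads differed between the assays. In CPM (counts scaled to a library total of 1000000), the 13 mRNAs together ran from 5995 to 12642 in RNA-seq (median 8940), from 266 to 534 in Ribo-seq (439), from 7299 to 13150 in TCP-seq (9924) and from 6295 to 18999 in Sel-TCP-seq (8626). Their Ribo-seq sums lay below that of every library of the other assays. The 2 rRNAs gave 0.0718 to 0.119 counts per mRNA count in RNA-seq, but 3.62 to 34.1 in Ribo-seq, 2.10 to 3.48 in TCP-seq and 1.97 to 6.53 in Sel-TCP-seq. The tRNAs summed to 156 to 247 CPM in RNA-seq and 4480 to 10437 in TCP-seq. All 37 transcripts held 0.685 to 1.38% of the counts in RNA-seq, 0.196 to 1.15% in Ribo-seq, 2.88 to 6.88% in TCP-seq and 3.63 to 7.51% in Sel-TCP-seq. The RNA-seq libraries are labelled polyA RNA and the Ribo-seq fragments were size-selected and depleted of rRNA per the labels' protocols, so rRNA and tRNA values are levels in these libraries and not in the cell.

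**Figure D1:**
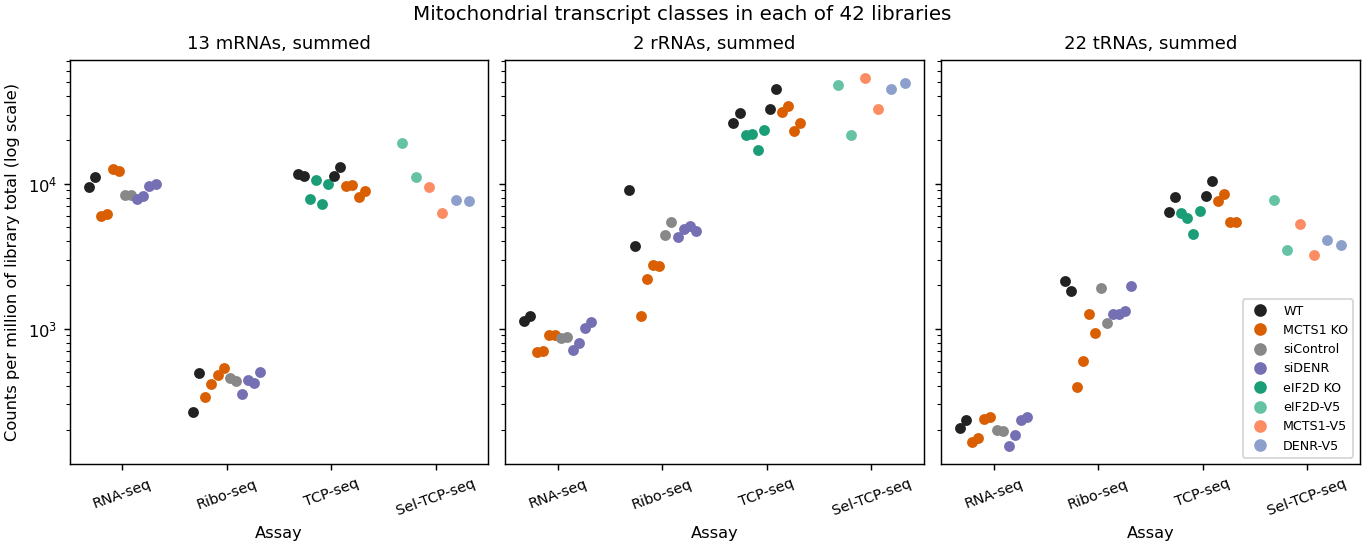
Summed CPM (log axis) of the 13 mRNAs, 2 rRNAs and 22 tRNAs in each of the 42 libraries, by assay; each point is 1 library, coloured by genotype, siRNA or tagged protein. The mRNAs sit between 266 and 534 CPM in Ribo-seq and at or above 5995 CPM elsewhere, while rRNAs and tRNAs are highest in the TCP assays.

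Within the mRNAs, per kilobase of annotated length (RefSeq, GRCh38.p14; the submitters' processing notes name GRCh38.p13), MT-CO1 had the highest median level in RNA-seq, at 1861 CPM per kb, followed by MT-CO3 at 1346 and MT-CO2 at 1174. MT-ND3 was the lowest at 129 CPM per kb. MT-CO1 was also highest in Ribo-seq, at 97.9 CPM per kb, and MT-ND4 was lowest there, at 8.4. In TCP-seq the order was another: MT-ATP8 was highest at 1994 CPM per kb and MT-CYB lowest at 503. MT-CO1 alone made up a median of 31.2% of the 13-mRNA total in RNA-seq and 34.8% in Ribo-seq, but 17.0% in TCP-seq and 21.6% in Sel-TCP-seq. MT-ND4 made up 10.6% in RNA-seq and 2.49% in Ribo-seq.

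The mitochondrial mRNAs had low Ribo-seq levels relative to their RNA-seq levels. In wild type cells the ratio of the mean Ribo-seq CPM to the mean RNA-seq CPM ran from 0.00852 for MT-ND4 to 0.0768 for MT-ND3, with a median of 0.0395. The median log2 ratio of all 103388 transcripts with at least 20 counts in each assay was -0.34, and MT-ND3, the highest mRNA, stood at the 0.458th percentile of them. MT-ND4 had 1033 and 1293 CPM in the wild type RNA-seq libraries and 7.6 and 12.2 in Ribo-seq. MT-ND5, another complex I mRNA, had 586 and 693 CPM in RNA-seq and 27.1 and 47.8 in Ribo-seq, a ratio of 0.0586. Over the 6 cell populations the MT-ND4 ratio was 0.00805 to 0.0174, and it was the lowest of the 13 in each. MT-ND3 had ratios of 0.0591 to 0.183, and its highest percentile in any population was 2.62. These ratios are descriptions of 2 libraries per assay without a test.

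**Figure D2:**
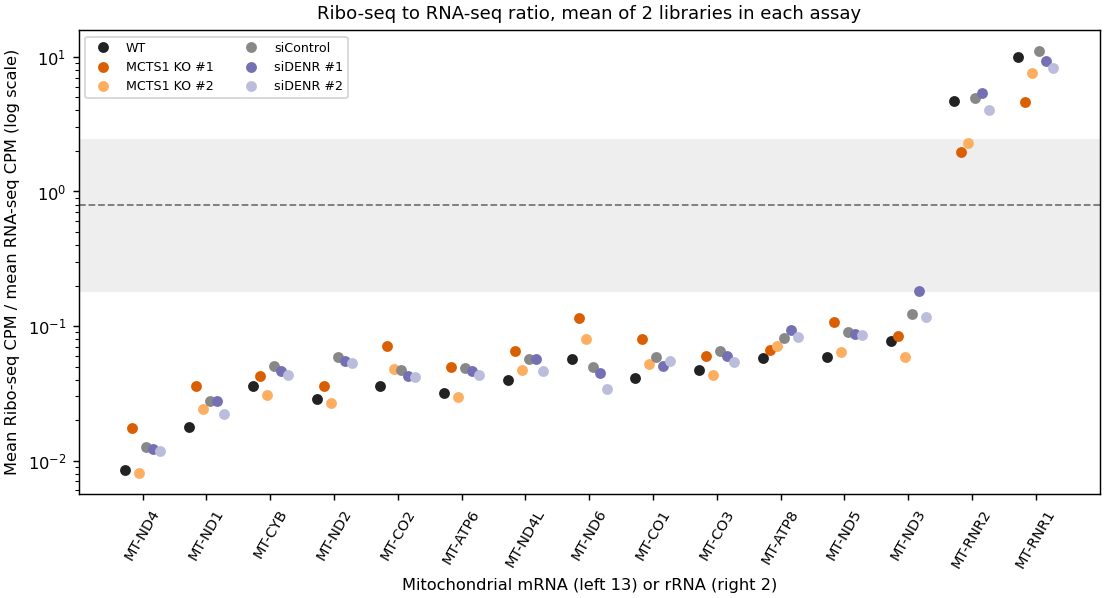
Ratio of mean Ribo-seq to mean RNA-seq CPM (log axis) for each mitochondrial mRNA and rRNA in 6 cell populations, each point a mean of 2 libraries per assay; the grey band spans the lowest 5th to the highest 95th percentile of all transcripts over the populations and the dashed line is the wild type median. MT-ND4 is the lowest mRNA in all 6 populations, and MT-RNR1 and MT-RNR2 lie at ratios of 1.95 to 11.01.

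The rRNAs and 13 of the 22 tRNAs had Ribo-seq to RNA-seq ratios above 1 in wild type cells, with a tRNA median of 1.32 and a range from 0.0142 to 1301. The ratio was 9.98 for MT-RNR1 and 4.69 for MT-RNR2. MT-TV, the tRNA for valine that is encoded between the 2 rRNAs, had 0.88 and 1.25 CPM in the wild type RNA-seq libraries and 1447 and 1316 in Ribo-seq, a ratio of 1301. It was the tRNA with the highest median in Ribo-seq (729 CPM), TCP-seq (666) and Sel-TCP-seq (1246). MT-TL1, a leucine tRNA encoded next to MT-RNR2, had 23.6 and 27.7 CPM in RNA-seq and 587 and 413 in Ribo-seq. MT-TS1, a serine tRNA, went the other way, with 88.1 and 95 CPM in RNA-seq and 1.28 and 2.14 in Ribo-seq. The tRNA class was thus not uniform in Ribo-seq, where MT-TV and MT-TL1 stood far above the other 20. In TCP-seq all 22 tRNAs had a median above 100 CPM.

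In RNA-seq 8 of the 13 mitochondrial mRNAs were lower in MCTS1 KO clone #1, and none was called lower in clone #2. MT-CO1 had 3170 and 3502 CPM in wild type, 1548 and 1513 in clone #1 and 3296 and 3238 in clone #2. MT-CYB had 915 and 1003 CPM in wild type, 455 and 469 in clone #1 and 1142 and 1133 in clone #2. For both, clone #1 lay below wild type without overlap, and only MT-CYB of clone #2 lay above it without overlap. MT-ND4 had 1033 and 1293 CPM in wild type, 729 and 761 in clone #1 and 1647 and 1555 in clone #2, with no overlap on either side. A transcript was called where its adjusted p was under 0.05 in edgeR's quasi-likelihood test with Benjamini-Hochberg adjustment over all transcripts tested, 131951 in this comparison. Against wild type, clone #1 had 8 of 13 mRNAs called, all lower (42.2% of all transcripts called in either direction, 21.7% lower), with a median log2 change of -0.63 beside 0.00 for all transcripts. The other 5 were not called, and MT-ATP8 (0.15 ± 0.15) and MT-ND3 (0.14 ± 0.15) had positive values there. MT-CO1 changed by -1.16 ± 0.03 (SE, adjusted p = 4.7e-39) and MT-CYB by -1.09 ± 0.04 (adjusted p = 4.9e-37) on the log2 scale. In clone #2 all 13 changes were positive with a median of 0.43, and 2 were called, both higher (14.9% of all transcripts): MT-CO3 at 0.43 ± 0.04 and MT-CYB at 0.29 ± 0.04. The clones differed from each other for 11 of 13 mRNAs, all lower in clone #1, with a background of 45.8% and a median of -1.10.

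Averaged over the clones, the change in RNA-seq was small for most of the mRNAs, with opposite signs in the clones for most of them. MT-ND1, for example, was -0.63 in clone #1, 0.63 in clone #2 and 0.00 in the mean. Of the 13, 3 were called, all lower (24.9% of all transcripts called): MT-CO1 at -0.57 ± 0.03, MT-CYB at -0.40 ± 0.03 and MT-CO3 at -0.14 ± 0.03. The median was -0.09, beside -0.01 for all transcripts. MT-CO3 and MT-CYB were each called lower in clone #1 and higher in clone #2, so their means describe neither clone. MT-CO1 was called in clone #1 and was 0.01 ± 0.03 in clone #2, where it was not called. Called mRNAs were thus 3 of 13, close to the share over all transcripts. The other 10 were not called and had values from -0.37 (MT-CO2, adjusted p = 0.053) to 0.50 (MT-ND3). The count was 11 without the first wild type library, 8 without the second and 5 without the second library of clone #1. Clone #1 libraries were also the deepest in RNA-seq, at 301214608 and 150951436 counts against at most 104084653 in the others, and the part of depth in the result was not tested.

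The 2 rRNAs were lower in both MCTS1 KO clones. MT-RNR1 had 167 and 169 CPM in wild type, 129 and 131 in clone #1 and 123 and 123 in clone #2. Its log2 change was -0.41 ± 0.04 in clone #1 (adjusted p = 1.5e-15) and -0.41 ± 0.04 in clone #2 (7.7e-15). MT-RNR2 changed by -0.87 ± 0.04 in clone #1 and -0.32 ± 0.04 in clone #2, and it was the rRNA for which the clones differed (-0.55 ± 0.04, adjusted p = 1.7e-21). Of the 22 tRNAs, 5 were called higher and 2 lower in the mean of the clones (24.9% of all transcripts called), with a median of 0.12. The 4 called tRNAs with the largest mean changes were called in clone #1 and not in clone #2, and the clones differed for each. MT-TI (isoleucine) was 1.05 ± 0.11 in clone #1 and 0.36 ± 0.13 in clone #2, with a mean of 0.70 ± 0.11. MT-TS1 was -0.94 ± 0.05 and 0.04 ± 0.05, with a mean of -0.45 ± 0.04. MT-TA (alanine) was 0.53 ± 0.08 and 0.20 ± 0.10, and MT-TR (arginine) was 0.68 ± 0.10 and -0.03 ± 0.12.

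With DENR siRNA the changes in RNA-seq were smaller, and the siRNAs differed. MT-ND1, the complex I subunit, had 326 and 344 CPM with control siRNA, 285 and 298 with DENR siRNA #1 and 435 and 450 with siRNA #2. MT-ND4 had 833 and 843, 710 and 747, and 999 and 1005 CPM in the same order. Each siRNA's libraries lay to opposite sides of the control for both genes. In the mean of both siRNAs all 13 mRNAs had values between 0.00 and 0.15 on the log2 scale, and 2 were called higher (23.1% of all transcripts called): MT-ND2 at 0.15 ± 0.05 (adjusted p = 0.032) and MT-ATP6 at 0.13 ± 0.05 (adjusted p = 0.046). The count was 0 without either control library or either library of siRNA #2, and 4 and 1 without the first and the second library of siRNA #1. The median was 0.07, beside -0.01 for all transcripts. Alone, siRNA #1 had 3 mRNAs called lower (26.0% called in either direction), MT-ND1, MT-ND4 and MT-ND4L at -0.20, -0.20 and -0.19. siRNA #2 had 11 called higher (19.2%), with a median of 0.22 and the largest value for MT-ND3 at 0.41 ± 0.08. Of the 13 mRNAs, 12 differed between the siRNAs (24.8% of all transcripts), and MT-CO1 was the one that was not called. MT-RNR1 was higher in the mean, by 0.27 ± 0.05, and MT-RNR2 was -0.25 ± 0.06 with siRNA #1 and 0.21 ± 0.06 with siRNA #2. Of 21 tRNAs tested, 3 were called higher and 4 lower. The siRNAs differed for 16 of the 21, all lower with siRNA #1. MT-TS2 (serine) had a mean of -0.43 ± 0.10, from -0.60 ± 0.12 with siRNA #1 and -0.25 ± 0.12 with siRNA #2. MT-TC (cysteine) had a mean of 0.40 ± 0.08, from 0.09 ± 0.09 and 0.71 ± 0.09. MT-TL2 (leucine) had a mean of -0.40 ± 0.11, from -0.59 ± 0.13 and -0.22 ± 0.13.

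**Figure D3:**
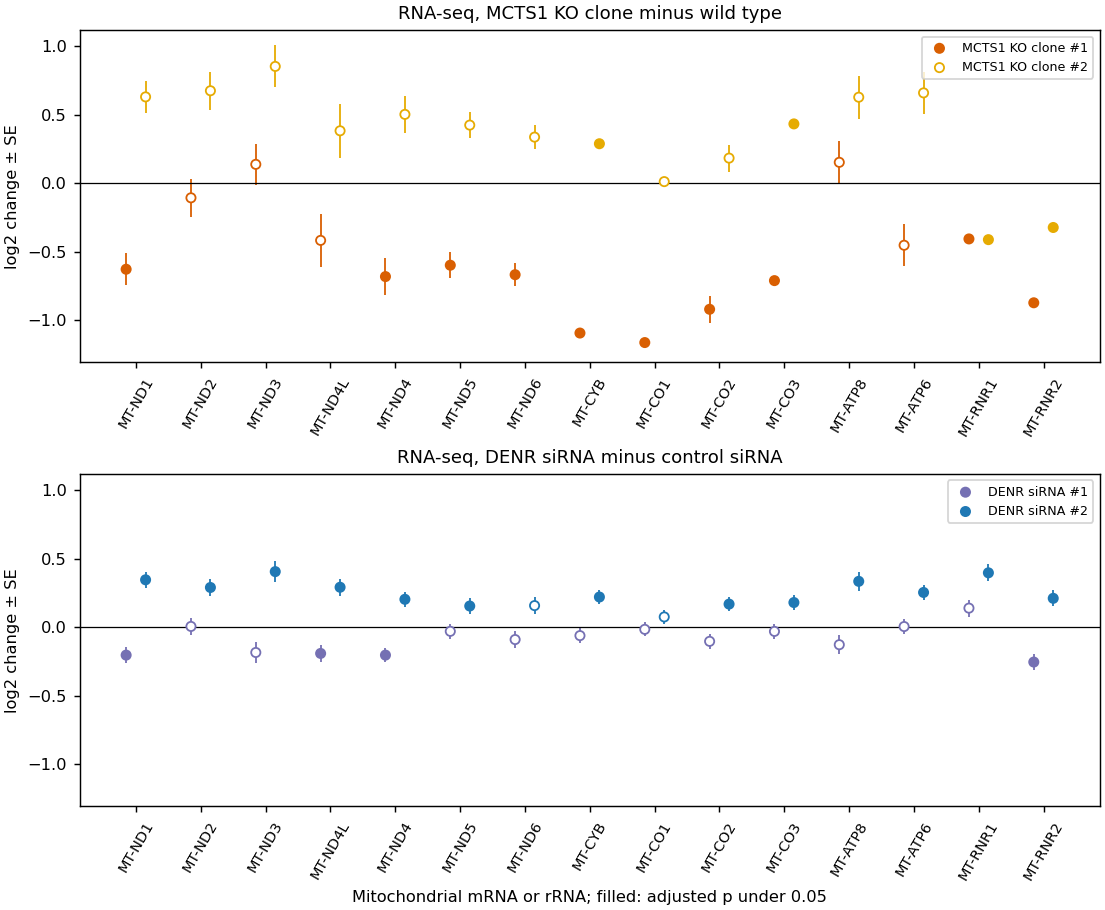
log2 change in RNA-seq for the mRNAs and rRNAs, with bars for the standard error, for each MCTS1 KO clone against wild type (top) and each DENR siRNA against control siRNA (bottom), 2 libraries per group; filled points were called at an adjusted p under 0.05. MCTS1 KO clone #1 lies between -1.16 and 0.15 for the mRNAs and clone #2 between 0.01 and 0.85, and the siRNAs stay within about 0.4 of 0.

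In Ribo-seq none of the mRNAs was called in the MCTS1 KO. edgeR called 0 of 13 (6.1% of all transcripts), 1 had an unadjusted p under 0.05, and DESeq2 also called 0. MT-CO1 had 92.5 and 183 CPM in wild type, 117 and 129 in clone #1, and 162 and 180 in clone #2, so the wild type libraries enclosed all the others. MT-ATP6 had 15.5 and 33.6 CPM in wild type, 26.7 and 31.1 in clone #1 and 32.8 and 37.0 in clone #2. The spread between the wild type libraries was wide. Their mRNA sums were 266 and 495 CPM and their rRNA to mRNA ratios were 34.1 and 7.55, against 3.62 to 5.80 in the KO. The count was 8 without the second wild type library, 3 without the first and 1 without the first library of clone #1. MT-RNR2 had 7040 and 2415 CPM in wild type, 823 and 1387 in clone #1 and 1877 and 1737 in clone #2, with a log2 change of -1.76 ± 0.56 that was not called (adjusted p = 0.24). MT-RNR1 changed by -1.17 ± 0.40 (adjusted p = 0.26). Of the 22 tRNAs 7 were called, all lower, with a median over the 22 of -0.24. MT-TV had the largest change at -1.64 ± 0.20 (adjusted p = 0.048), from 1447 and 1316 CPM in wild type to 238 and 294 in clone #1 and 884 and 620 in clone #2. MT-TL2 changed by -1.03 ± 0.10 (adjusted p = 7.8e-07), MT-TC by -0.99 ± 0.20 and MT-TH (histidine) by -0.61 ± 0.15. None of these 7 was called in clone #2 alone, and 6 of them were in clone #1. Clone #1 libraries were also the deepest in Ribo-seq, at 193940882 and 148159238 counts against at most 53386368 in the others. The part of depth was not tested. MT-TN (asparagine), 1 of the 7, was -1.14 ± 0.12 in clone #1 and 0.40 ± 0.12 in clone #2. MT-TL2 was -1.88 ± 0.12 in clone #1 and -0.18 ± 0.12 in clone #2, MT-TV -2.39 ± 0.26 and -0.89 ± 0.24, MT-TC -1.42 ± 0.22 and -0.55 ± 0.25, and MT-TH -1.32 ± 0.17 and 0.10 ± 0.18. In clone #2 alone edgeR called MT-TK (lysine) higher, at 0.77 ± 0.21 (adjusted p = 0.040). It was -0.38 ± 0.20 in clone #1 and was not called there. The clones differed for 7 of the 22 tRNAs, all lower in clone #1 (18.6% of all transcripts).

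Translational efficiency, the Ribo-seq change relative to the RNA-seq change, was called for 0 of the 13 mRNAs in the MCTS1 KO (0.872% of all transcripts). edgeR gave 0 at an unadjusted p under 0.05 and DESeq2 gave 0 calls. The values were positive for 11 of 13, with a median of 0.38 beside -0.01 for all transcripts and standard errors of 0.24 to 0.41. MT-ND6 had the largest value, 0.67 ± 0.41. Clone #1 had 13 positive values with a median of 0.68 and clone #2 a median of 0.03. The clones were called different for 0 of the 13 (6.27% of all transcripts), and 2 had an unadjusted p under 0.05. Without the second wild type Ribo-seq library 2 mRNAs were called. The term compares the changes in the Ribo-seq and RNA-seq libraries. Whether the Ribo-seq fragments of the 13 mRNAs came from mitochondrial ribosomes was not tested. For rRNAs and tRNAs, which are not translated, the same term is not an efficiency. Neither rRNA was called, and of the tRNAs 6 were called, all lower, with MT-TL2 at -1.15 ± 0.13 (adjusted p = 8.9e-08), MT-TC at -0.94 ± 0.23, MT-TA at -0.79 ± 0.14 and MT-TH at -0.72 ± 0.17. All 6 were called in clone #1 alone, and edgeR called 0 of the 22 tRNAs in clone #2 alone, with 5 at an unadjusted p under 0.05. MT-TL2 was -2.27 ± 0.14 in clone #1 and -0.02 ± 0.15 in clone #2, and MT-TH was -1.43 ± 0.18 and -0.02 ± 0.20. The clones differed for 6 tRNAs, all lower in clone #1. Clone #1 had the deepest libraries in both assays, and the part of depth was not tested.

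In the mean of both DENR siRNAs the mitochondrial mRNAs were not called in Ribo-seq or in translational efficiency. In Ribo-seq edgeR called 0 of 13 (10.4% of all transcripts), 1 had an unadjusted p under 0.05, and DESeq2 called 0. MT-CO1 had 170 and 153 CPM with control siRNA, 127 and 149 with siRNA #1 and 147 and 181 with siRNA #2. MT-ND6 had 9.6 and 12.4, 8.2 and 10.4, and 6.6 and 10.8 CPM in the same order, and its value of -0.34 ± 0.14 was not called. The median was -0.09, beside -0.02 for all transcripts. The count was 1 without the first control library, 1 without the second library of siRNA #1 and 3 without the second library of siRNA #2. With siRNA #1 alone edgeR called MT-CO2 lower, at -0.28 ± 0.08 (adjusted p = 0.018), and MT-RNR1 lower, at -0.13 ± 0.04 (adjusted p = 0.018). With siRNA #2 alone it called MT-ATP8 higher, at 0.38 ± 0.12 (adjusted p = 0.040). The siRNAs differed for MT-CO2 alone among the mRNAs (-0.31 ± 0.09, adjusted p = 0.0088) and for MT-RNR1 among the rRNAs (-0.15 ± 0.04, adjusted p = 0.0037), of 11.1% of all transcripts. Of 19 tRNAs tested, 0 were called by edgeR in the mean of the siRNAs and 1 had an unadjusted p under 0.05. With siRNA #1 alone edgeR called MT-TM (methionine) lower, at -0.35 ± 0.08 (adjusted p = 0.0021), and MT-TA higher, at 0.62 ± 0.21 (adjusted p = 0.046). With siRNA #2 these were 0.01 ± 0.08 and 0.11 ± 0.22 and were not called. The siRNAs were called different for MT-TM (-0.37 ± 0.09, adjusted p = 0.0019) and not for MT-TA. For translational efficiency edgeR called 0 of 13 mRNAs (0.369% of all transcripts), 2 had an unadjusted p under 0.05 and DESeq2 called 0. The mRNA median was -0.15, beside 0.01 for all transcripts, and the count was 1 without the second Ribo-seq library of siRNA #2. For MT-RNR1, which is not translated, the same term was -0.33 ± 0.06 (adjusted p = 0.0014), with a higher RNA-seq level and a Ribo-seq change of -0.05 ± 0.03. With siRNA #1 alone the term was -0.28 ± 0.07 and edgeR did not call it (adjusted p = 0.054). The RNA-seq change of MT-RNR1 was 0.14 ± 0.06 with siRNA #1, not called, and 0.40 ± 0.06 with siRNA #2, called.

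In TCP-seq every mitochondrial mRNA had a negative value in the eIF2D KO, set against wild type libraries 1 and 2, whose numbers in the labels adjoin those of this KO. MT-ND4 had 1495 and 1466 CPM in wild type, 987 and 1346 in KO clone #1 and 871 and 1109 in clone #2. MT-CO3 had 1081 and 1066 CPM in wild type, 717 and 939 in clone #1 and 669 and 921 in clone #2. All 4 KO libraries lay below both wild type libraries for both genes. MT-CYB had 753 and 645 CPM in wild type and 492, 750, 475 and 595 in the KO libraries, which overlapped. The test called 8 of 13 mRNAs lower (1.61% of all 50991 transcripts called, 1.01% lower) and none higher. Deviations of replicates from their group mean, over all libraries, went together in adjacent mRNAs. Their r was 0.95 for MT-ATP6 and MT-CO3, 0.91 for MT-ATP8 and MT-ATP6, 0.90 for MT-ND4L and MT-ND4, and 0.76 for MT-ND5 and MT-ND6. Calls of single mRNAs, here and in the other comparisons, are thus not independent of each other. The median log2 change was -0.45, beside 0.00 for all transcripts. The largest values were MT-ND4 at -0.53 ± 0.11 (adjusted p = 0.0014), MT-ATP6 at -0.53 ± 0.12 (adjusted p = 0.0075), MT-ND1 at -0.52 ± 0.12 and MT-ND3 at -0.51 ± 0.12. MT-CO1, MT-CO3, MT-ATP8 and MT-ND2 were the other called mRNAs. Between the KO clones 0 of the 13 were called by edgeR (8.23% of all transcripts), and 0 had an unadjusted p under 0.05. MT-RNR1 was lower by -0.57 ± 0.13 (adjusted p = 0.0091), and MT-RNR2 was -0.47 ± 0.14 (adjusted p = 0.067). All 22 tRNAs were negative with a median of -0.40, and 1 was called, MT-TH at -0.47 ± 0.12.

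The values in the eIF2D KO lay between -0.53 and -0.26 for the 13 mRNAs. Scaling the libraries to the 13 mRNAs removes their common shift by construction, so the 0 calls among them under it (2.96% of all transcripts called) say nothing about that shift. The median over all transcripts was then 0.46. DESeq2 called 2 (1.37% of the 2550 transcripts it tested) and scaling to the library total called 2 (1.48%). The count was 5 without wild type library 1, 1 without wild type library 2, and 3 and 13 without libraries 1 and 2 of KO clone #2. The KO libraries held 2.88 to 4.00% mitochondrial counts, against 4.44 and 5.01% in wild type libraries 1 and 2. The KO library with the lowest share was also the deepest TCP-seq library, at 5053637 counts, and the part of depth was not tested.

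The MCTS1 KO also had lower values in TCP-seq, set against wild type libraries 3 and 4. MT-ND4 had 1533 and 1752 CPM in wild type, 1182 and 1151 in clone #1 and 874 and 1014 in clone #2. MT-ND1 had 790 and 960 CPM in wild type, 589 and 586 in clone #1 and 553 and 595 in clone #2. For both, all 4 KO libraries were below both wild type libraries. The test called 10 of 13 mRNAs lower (13.8% of all transcripts called, 6.56% lower), with a median of -0.39 beside 0.01 for all transcripts. MT-ND4 changed by -0.68 ± 0.11 (adjusted p = 4.5e-07), MT-ND1 by -0.63 ± 0.12 (adjusted p = 0.00043), MT-ND2 by -0.49 ± 0.11 and MT-CO1 by -0.48 ± 0.12. MT-ND3, MT-ND4L and MT-ATP8 were not called. Clone #1 alone had 2 mRNAs called (4.99% of all transcripts) and clone #2 alone 11 (19.1%), and edgeR called 0 of the 13 different between the clones (3.44%), with 7 at an unadjusted p under 0.05. MT-RNR1 was lower by -0.63 ± 0.13 and MT-RNR2 by -0.44 ± 0.14, and the clones differed for MT-RNR1 by 0.60 ± 0.16 (adjusted p = 0.012). Of the 22 tRNAs 13 were called, all lower, with a median over the 22 of -0.54. The largest were MT-TE (glutamate) at -0.81 ± 0.21, MT-TN (asparagine) at -0.76 ± 0.21, MT-TC at -0.73 ± 0.14 and MT-TY (tyrosine) at -0.72 ± 0.19.

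The MCTS1 KO counts moved with the wild type libraries used. Wild type library 4 had the highest mitochondrial share of all TCP-seq libraries, 6.88%, at 1900382 counts, and without it 2 of 13 mRNAs were called. Against wild type libraries 1 and 2, a setting chosen after the data were seen, 6 of 13 were called (6.72% of all transcripts) and the rRNAs were at -0.16 ± 0.14 for MT-RNR1 and 0.03 ± 0.15 for MT-RNR2. Scaled to the 13 mRNAs, which again sets their common shift to 0, none of them was called (18.1% of all transcripts) and the median over all transcripts was 0.44. DESeq2 called 5 (12.1%) and scaling to library totals 4 (13.9%). The clone #2 libraries, at 3294478 and 3853825 counts, were deeper than those of clone #1, at 1969167 and 1609303, and had shares of 3.66 and 4.07% against 4.85 and 5.27%. The part of depth was not tested. The KOs were not tested against each other.

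**Figure D4:**
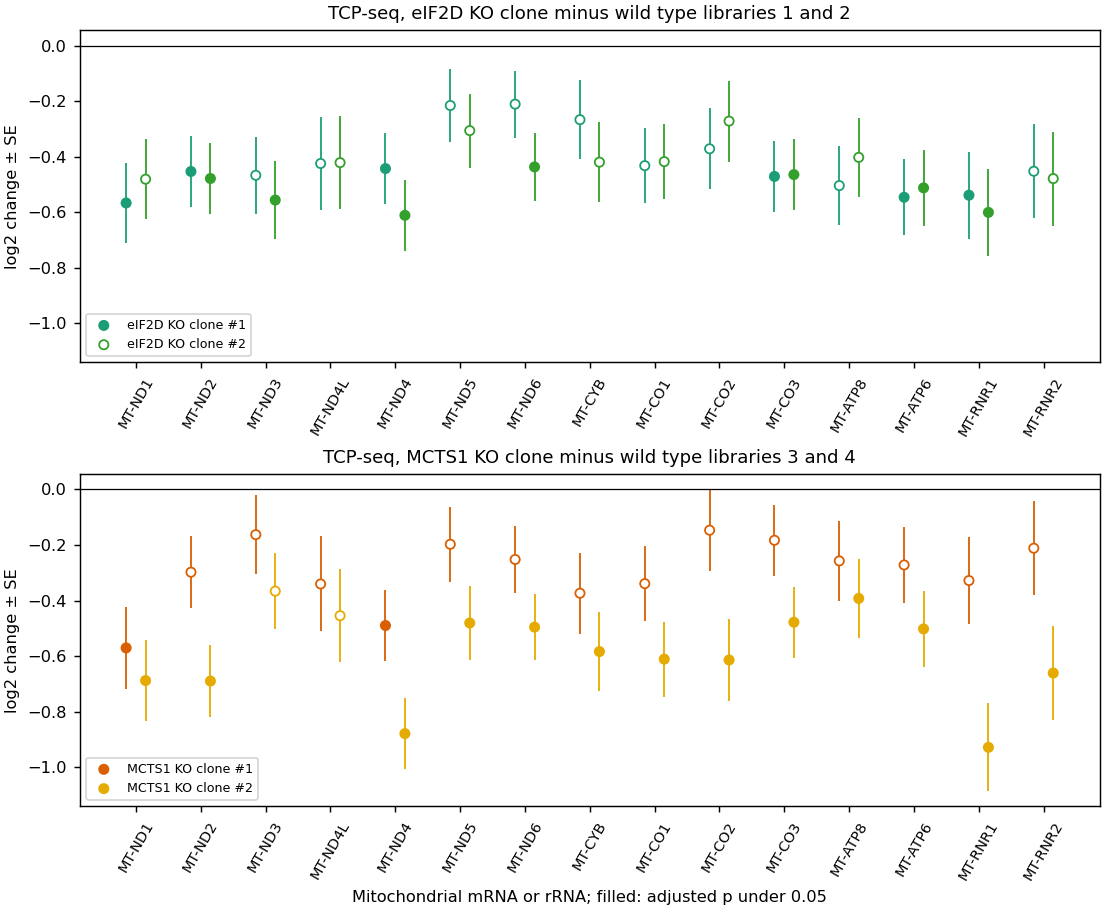
log2 change in TCP-seq for the mRNAs and rRNAs, with bars for the standard error, for each eIF2D KO clone against wild type libraries 1 and 2 (top) and each MCTS1 KO clone against wild type libraries 3 and 4 (bottom); filled points were called at an adjusted p under 0.05. All values are negative, and the eIF2D KO clones lie close together while MCTS1 KO clone #2 lies below clone #1 for every mRNA and rRNA.

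In the tag-selected libraries, 3 of the 13 mitochondrial mRNAs were called higher with eIF2D-V5 than with MCTS1-V5 and DENR-V5. In that fit, which had no replicate block, the share was close to that over all transcripts. Whether these RNAs were bound to the recovered 40S subunits was not tested. MT-ND6 had 701 and 565 CPM with eIF2D-V5, 275 and 198 with MCTS1-V5 and 205 and 216 with DENR-V5. MT-CYB had 1261 and 744, 595 and 368, and 359 and 412 CPM in the same order. Both eIF2D-V5 libraries were above the other 4 for both genes, but they differed from each other, with mRNA sums of 18999 and 11052 CPM. They were also the deepest of the selected libraries, at 1017092 and 2582917 counts against at most 629784 in the other 4. The part of depth was not tested. Against the mean of the other proteins, 3 of 13 were called higher (22.1% of all transcripts called): MT-ND6 at 1.35 ± 0.26 (adjusted p = 0.0033), MT-CYB at 1.07 ± 0.34 (adjusted p = 0.036) and MT-ND4L at 0.90 ± 0.29 (adjusted p = 0.037). The median was 0.79, beside 0.03 for all transcripts. The numbered replicates of these groups deviated together, and this was the only comparison that met the criterion for pairing. With the replicate number as a block 8 of 13 were called (37.1% of all transcripts). The share close to that over all transcripts thus held only without the block. The count was 1 without the first eIF2D-V5 library and 8 without the second, 12 without the first MCTS1-V5 library and 1 without the first DENR-V5 library. The rRNAs were not called, at -0.67 ± 0.90 for MT-RNR1 and -0.40 ± 1.01 for MT-RNR2. Of the 22 tRNAs 9 were called, all higher, led by MT-TQ (glutamine) at 1.77 ± 0.37, MT-TM (methionine) at 1.60 ± 0.33, MT-TL2 at 1.54 ± 0.34 and MT-TG (glycine) at 1.32 ± 0.35. With the block the tRNA count was 15 higher and 1 lower. MT-TV stood at -0.82 ± 0.47 and was not called.

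Against unselected TCP-seq from untagged wild type cells, 16 of the 22 mitochondrial tRNAs were lower in the selected 40S libraries. The summed tRNA level overlapped, at 6431 to 10437 CPM in wild type, 7732 and 3479 with eIF2D-V5, 5300 and 3249 with MCTS1-V5 and 4071 and 3779 with DENR-V5. MT-TR had 165, 192, 222 and 244 CPM in the 4 wild type libraries, 77.7 and 43.4 with eIF2D-V5, 44.9 and 27.3 with MCTS1-V5 and 12.7 and 16.6 with DENR-V5. MT-TH had 323, 390, 394 and 497 CPM in wild type and 51.8 to 197 over the 6 selected libraries. Neither gene had an overlap between the selected and the unselected libraries. Of the 22 tRNAs 16 were called lower and 0 higher (31.2% of all transcripts called, 19.7% lower), with a median of -1.32 beside -0.10 for all transcripts. MT-TR changed by -2.61 ± 0.18 (adjusted p = 1e-16), MT-TH by -2.25 ± 0.17, MT-TQ by -1.91 ± 0.34 and MT-TM by -1.89 ± 0.25. MT-TV was the exception in sign, at 0.68 ± 0.32 (adjusted p = 0.15). MT-RNR1 was higher, by 0.69 ± 0.22 (adjusted p = 0.014), and MT-RNR2 was 0.30 ± 0.22 and not called. The small-subunit rRNA MT-RNR1 had 8628 to 14652 CPM in wild type, 17592 and 7612 with eIF2D-V5, 22740 and 13563 with MCTS1-V5 and 17449 and 18874 with DENR-V5.

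The mRNAs split in this comparison. MT-ND4L, MT-ND2, MT-ND1 and MT-ND4 were called lower, at -0.81 ± 0.15, -0.81 ± 0.17, -0.71 ± 0.16 and -0.66 ± 0.18, and 4 of 13 is close to the 31.2% called over all transcripts (19.7% lower). The other 3 mRNAs of complex I were not called, at 0.12 ± 0.15 (MT-ND5), 0.03 ± 0.20 (MT-ND3) and -0.07 ± 0.13 (MT-ND6). The count was 7 without the first eIF2D-V5 library and 7 without the first MCTS1-V5 library. None was called higher, and the median over the 13 was -0.13. Among the complex IV mRNAs, MT-CO1 was at 0.17 ± 0.16, MT-CO2 at 0.20 ± 0.16 and MT-CO3 at 0.00 ± 0.15. By protein, eIF2D-V5 had 5 mRNAs called higher and none lower (39.0% of all transcripts called), MCTS1-V5 had 4 lower (15.5%) and DENR-V5 had 6 lower (11.5%). MT-ND6 was 0.82 ± 0.17 with eIF2D-V5 and -0.57 ± 0.19 with DENR-V5, and MT-CYB was 0.51 ± 0.20 and -0.67 ± 0.22. The tRNAs were called lower for 6 of 22 with eIF2D-V5 and for 12 of 22 with each of the other proteins. Selection, tag and cell line cannot be told apart in this comparison, since the unselected libraries carry no tag.

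**Figure D5:**
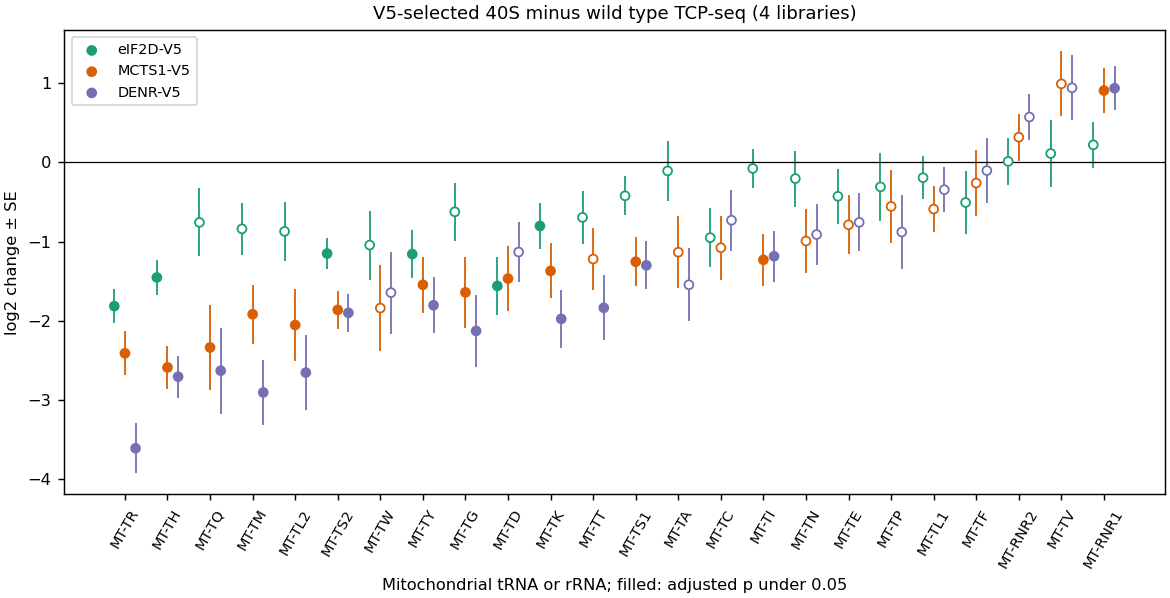
log2 change of each tRNA and rRNA in V5-selected 40S libraries against the 4 wild type TCP-seq libraries, ordered by the log2 change of the mean of the 3 proteins, with bars for the standard error; filled points were called at an adjusted p under 0.05. MT-TR and MT-TH are lowest, and MT-TV and MT-RNR1 are the highest at the right.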

How the data were processed

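Of 52 labelled samples, 42 had a column: 12 each for RNA-seq, Ribo-seq and TCP-seq, and 6 for 40S Sel-TCP-seq. The other 10, in 5 groups, were not analysed here. Groups came from the sample labels. The values are raw read counts per transcript, deposited by the authors, without normalization. The submitters' processing notes name STAR, Subread, featureCounts and cutadapt, and GRCh38.p13 and hg38 as builds. The handling of multi-mapped, overlapping and antisense reads was not stated in the sources available. CPM is the count scaled to a library total of 1000000. Totals ran from 356019 to 301214608 counts.

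edgeR 4.0.16 (R 4.3.3) was fitted to the whole table per comparison: filterByExpr with a minimum count of 10, TMM scaling, the robust quasi-likelihood test, Benjamini-Hochberg adjustment and a threshold of 0.05. KO clones, siRNAs and reference proteins were averaged with equal weight. The test of translational efficiency was a group-by-assay interaction term. TCP-seq was 1 fit of 12 libraries, with wild type libraries 1 and 2 as controls for the eIF2D KO and 3 and 4 for the MCTS1 KO. DESeq2 1.42.0, other scalings and filters, single clones, left-out libraries and a replicate block were alternatives. The scripts were tested on simulated data. With 2 libraries a group, precision is limited by their number.

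The deposited identifiers carry no gene names, and no table used here pairs them with names. The 37 symbols and their classes were assigned by hand from general knowledge, so every gene name in the text rests on that assignment. The checks on it were indirect: 36 of 37 transcript version numbers equal the gene version in the name table. Many members share a version number, so this match could not reveal a swap of names between such members. Lengths and overlaps come from the RefSeq table of GRCh38.p14. All mRNAs and rRNAs may be named, and of the tRNAs the called ones with the largest change (at most 4 a comparison) and those with the highest level of an assay (at most 3). MT-TW, MT-TK, and values of named tRNAs in other comparisons, were added after their values were seen. Members and lists were chosen with earlier results of these data known. Nuclear genes of mitochondrial expression were not analysed here. The replicate numbers met the criterion for pairing (every correlation above 0.1) only in the comparison among the V5-selected groups, where the difference between replicates 1 and 2 correlated between groups with r of 0.25 to 0.70 over the transcripts of that comparison. Block fits elsewhere are alternatives only.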

Additional observations from a re-analysis of the deposited data

Results flagged for a closer look

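Of 40 sets of 4 wild type TCP-seq values tested with Dixon's criterion, 3 had a library apart from the others, and chance flags about 1 in 20: MT-CO2 in library 3 was the lowest at 849 CPM, MT-ND1 in library 4 the highest at 960 CPM, and MT-ND4L in library 4 the highest at 489 CPM. Clones or siRNAs differed from each other, by edgeR's test of the difference, for 11 mRNAs and 1 rRNA in the MCTS1 KO RNA-seq, for 12 mRNAs and 2 rRNAs after DENR siRNA in RNA-seq, for 1 mRNA and 1 rRNA after DENR siRNA in Ribo-seq, and for 1 rRNA in the MCTS1 KO TCP-seq. The largest of these differences were in the MCTS1 KO RNA-seq, where every mRNA had the lower value in clone #1. No cause of these differences was tested.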

How the results depend on the processing

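The count of called mRNAs moved by over 1.5 times in 30 of 74 alternatives other than leaving out a library. For the MCTS1 KO in RNA-seq (3 called) it was 8 with clone #1 alone, 5 without the filter, 5 scaled to the 13 mRNAs, 7 with the replicate block and 6 with DESeq2. In the MCTS1 KO Ribo-seq (0) it was 3 without the filter and 5 with the block. For DENR siRNA in RNA-seq (2) it was 11 with siRNA #2 alone, 0 scaled to the 13 mRNAs, 1 with the block and 1 with DESeq2; in Ribo-seq (0) it was 1 with siRNA #1 and 1 with siRNA #2 alone; for efficiency (0) it was 1 without the filter. For the eIF2D KO TCP-seq (8) it was 5 with clone #1 alone, 2 with library totals, 2 with DESeq2 and 0 scaled to the 13 mRNAs. For the MCTS1 KO TCP-seq (10) it was 2 with clone #1 alone, 6 against the other wild type libraries (chosen after seeing the data), 4 with library totals, 5 with DESeq2 and 0 scaled to the 13 mRNAs. For eIF2D-V5 against the others (3) it was 1 with either reference alone, 6 with library totals, 12 without the filter, 0 scaled to the 13 mRNAs, 8 with the block and 1 with DESeq2. Leaving out 1 library gave 4 to 11, 0 to 8, 0 to 2, 0 to 4, 0 to 3, 0 to 1, 1 to 13, 2 to 13, 1 to 12 and 4 to 7 called, in the order MCTS1 KO RNA-seq, Ribo-seq and efficiency, DENR siRNA RNA-seq, Ribo-seq and efficiency, eIF2D KO and MCTS1 KO TCP-seq, eIF2D-V5 against the others, and selection against TCP-seq.

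Signs of single mRNAs and rRNAs reversed as follows, counting only cases called in the main fit or in the alternative. Signs that changed without a call in either are not listed. In MCTS1 KO RNA-seq, MT-ND1 was -0.63 in clone #1 and -0.12 and 0.13 without wild type library 1 or 2, and in clone #2 MT-CO1 was 0.01, MT-CO3 0.43 and MT-CYB 0.29; scaled to the 13 mRNAs MT-CO3 was 0.10. In MCTS1 KO Ribo-seq MT-CO1 was -0.34 and 0.63 and MT-CO3 -0.35 and 0.34 without wild type library 1 or 2, and for efficiency MT-CYB was -0.38 and 0.50 without Ribo-seq library 1 or 2. With DENR siRNA #1 in RNA-seq MT-ND1 was -0.20, MT-ND4L -0.19 and MT-ND4 -0.20, and MT-RNR2 was 0.21 with siRNA #2. Scaled to the 13 mRNAs, MT-CO1 was 0.00 in the eIF2D KO TCP-seq, and in the MCTS1 KO TCP-seq MT-CO2 was 0.07, MT-ATP6 0.07, MT-CO3 0.12, MT-ND5 0.12, MT-ND6 0.08 and MT-RNR2 0.03; MT-RNR2 was also 0.03 against the other wild type libraries. With eIF2D-V5 alone against TCP-seq, MT-ND6 was 0.82 and MT-CYB 0.51. Scaling to the 13 mRNAs centres their own changes on 0, so 0 calls and changed signs among them under it follow from its construction. The cause was not tested for the others.

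The replicate numbers did not pair the libraries outside the V5-selected groups (r of the difference between replicates 1 and 2 from -0.25 to 0.21 over pairs of groups that do not both hold a V5 tag). The replicate block called 10 mRNAs in the eIF2D KO TCP-seq, 4 in the selection against TCP-seq and 0 for both efficiencies and for DENR siRNA in Ribo-seq. For the MCTS1 KO TCP-seq alone, no paired analysis was possible because its wild type libraries are numbered 3 and 4 and the KO libraries 1 and 2. Over all transcripts, the calls higher and lower were 14981 and 17845 for the MCTS1 KO in RNA-seq (8472 and 10818 with DESeq2), 3142 and 3895 in Ribo-seq (1925 and 2304), 4755 and 6593 for DENR siRNA in Ribo-seq (2822 and 3520), 308 and 515 for the eIF2D KO TCP-seq (4 and 31), 3710 and 3344 for the MCTS1 KO TCP-seq (1256 and 969), and 1551 and 1131 for eIF2D-V5 against the others (546 and 471). Without the filter the calls were 869 and 812 for efficiency in the MCTS1 KO (365 and 583 in the main edgeR fit) and 3581 and 558 for eIF2D-V5. For the selection they were 2280 and 9848 (4038 and 6887 in the main edgeR fit). With library totals the split was 457 and 298 for the eIF2D KO TCP-seq and 1724 and 710 for eIF2D-V5. Scaled to the 13 mRNAs it was 38738 and 2149 for the MCTS1 KO in RNA-seq, 1501 and 8 for the eIF2D KO TCP-seq, 8992 and 240 for the MCTS1 KO TCP-seq, 128 and 1310 for eIF2D-V5, and 2935 and 2572 for the selection.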
